A study of Homo sapiens with 4 samples.

Results

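The clustered replication-dependent histone genes were examined in p53 ChIP-seq peak lists from H1299, an established non-small-cell lung carcinoma line that is p53-/-. All protein-coding genes of the GRCh38 RefSeq table whose symbols begin with H2AC, H2BC, H3C or H4C and a digit were taken, together with the linker histone genes H1-1 to H1-6. This gave 70 genes of the 20033 protein-coding genes on chromosomes 1 to 22, X and Y. The cells expressed wild-type p53 (p53WT, 2 libraries) or a p53 mutant that the labels call CASM34 (2 libraries), in a series whose title concerns cancer-associated synonymous mutations. All 4 libraries came from the same p53-null line and were precipitated with the p53 antibody DO-1, and no cells without p53 were among the libraries analysed. The labels do not say how the p53 forms were introduced or whether libraries 1 and 2 of a group came from separate cultures, so the spread between libraries may be technical.

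Replication-dependent histone genes supply the core histones H2A, H2B, H3 and H4 and the linker histone H1 while DNA is copied in S phase. Most lack introns, and most of their transcripts end in a stem-loop in place of a poly(A) tail. In the histone locus body, a nuclear body at the clusters, the coactivator NPAT is phosphorylated by cyclin E with CDK2. The p53 target p21 inhibits that kinase, so p53 is known to act on histone transcription through this route. Whether p53 sits on the histone genes themselves is the question that the peak lists bear on.

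The genes lay in 2 large clusters. A cluster here is a run of members with gaps under 1 Mb. The cluster on chromosome 6 (25726063 to 27893891) held 55 genes from H2AC1 to H2BC17, and that on chromosome 1 (149782689 to 149887965) held 11 genes from H2BC18 to H2AC21. The other 4 members stood apart from both. H2AC25 and H2BC26 were neighbours elsewhere on chromosome 1, H4C16 was on chromosome 12 and H2BC12L on chromosome 21.

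The upstream regions of 4 histone genes are shown because a peak at these genes recurred between libraries, or because the genes are copies of each other. H1-4 encodes a linker histone, and H3C10, H3C14 and H3C15 encode histone H3. Each sequence is RefSeq GRCh38.p14, 250 bases ending just before the start site, 5′ to 3′ on the strand of the gene. Capitals mark every match to TATAAA and CCAAT on either strand, the core sequences of the TATA box and the CCAAT box of classical histone promoters. H1-4 is read from chr6:26156079-26156328 (plus strand), H3C10 from chr6:27809801-27810050 (plus), H3C14 from chr1:149841209-149841458 (minus) and H3C15 from chr1:149852358-149852607 (plus).
H1-4: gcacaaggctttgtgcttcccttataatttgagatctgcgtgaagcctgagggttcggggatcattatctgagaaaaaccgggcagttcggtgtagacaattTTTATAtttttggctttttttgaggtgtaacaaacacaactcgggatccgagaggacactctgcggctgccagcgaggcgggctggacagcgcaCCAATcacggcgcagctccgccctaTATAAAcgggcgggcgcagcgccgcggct
H3C10: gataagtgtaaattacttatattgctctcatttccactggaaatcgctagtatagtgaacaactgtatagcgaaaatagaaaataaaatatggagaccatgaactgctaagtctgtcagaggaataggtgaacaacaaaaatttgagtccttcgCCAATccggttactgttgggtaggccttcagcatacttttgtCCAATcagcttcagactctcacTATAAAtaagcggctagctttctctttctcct
H3C14: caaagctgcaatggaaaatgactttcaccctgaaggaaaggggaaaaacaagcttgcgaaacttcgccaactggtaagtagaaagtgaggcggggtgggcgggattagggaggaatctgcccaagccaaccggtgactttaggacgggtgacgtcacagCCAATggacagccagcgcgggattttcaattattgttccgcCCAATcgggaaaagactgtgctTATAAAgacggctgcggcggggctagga
H3C15: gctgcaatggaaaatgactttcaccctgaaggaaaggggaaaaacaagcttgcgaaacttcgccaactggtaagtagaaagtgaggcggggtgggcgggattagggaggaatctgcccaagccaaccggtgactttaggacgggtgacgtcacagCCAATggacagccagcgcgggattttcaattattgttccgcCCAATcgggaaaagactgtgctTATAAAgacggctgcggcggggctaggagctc

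These promoters carried TATAAA on the gene's own strand, with its first base between -32 and -28 counted from the base before the start site as -1: at -29 in H1-4, -32 in H3C10, -28 in H3C14 and -32 in H3C15. In H1-4 a further match to TATAAA, on the opposite strand at -148 to -143, lies far upstream of that at -29. H3C10, H3C14 and H3C15 each held CCAAT at 2 places, and H1-4 held it once. The 300-base windows of H3C14 and H3C15, which run 50 bases past the start, were identical over all 296 bases that aligned. Those of H2AC18 and H2AC19, the H2A genes beside them, were identical over 299 aligned bases. H3C14 with H2AC18 and H3C15 with H2AC19 thus lie as copies on opposite strands of the chromosome 1 cluster. Reads from one copy cannot be told from reads of the other where the sequence is the same. The peaks at these genes had their summits outside the windows compared, where identity was not measured, so which copy they belong to may be uncertain.

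Histone genes carried peaks in both libraries numbered 2 and almost none in the libraries numbered 1. A gene counted as called when its annotated start or end had a summit no more than 2 kb away. In p53WT 1, 0 of 70 histone genes were called, in p53WT 2 it was 14, in CASM34 1 it was 2 and in CASM34 2 it was 13. The libraries numbered 2 were high in both groups and those numbered 1 low in both, so the groups overlapped. The share was 20.0% in p53WT 2 (exact Clopper-Pearson 95% interval 11.4 to 31.3) and 18.6% in CASM34 2 (10.3 to 29.7). Over all protein-coding genes, 10.2% were called in p53WT 2, 6.94% in CASM34 2, 0.374% in p53WT 1 and 0.559% in CASM34 1. The intervals cover counting error only and treat genes as independent, although neighbours share peaks.

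Neighbouring histone genes mostly shared their peaks. The 14 called genes of p53WT 2 rested on 7 peaks, the 13 of CASM34 2 on 7 peaks, and the 2 of CASM34 1 on 1 peak. Among these 15 peaks, 2 touched 1 histone gene, 10 touched 2 and 3 touched 3. In p53WT 2 a peak called 2 histone genes on average, against 1.08 genes per gene-end peak over the whole list, and in CASM34 2 it called 1.86 against 1.12. Counted as peaks, there were 10 per 100 histone genes in p53WT 2 against 9.50 gene-end peaks per 100 protein-coding genes. In CASM34 2 there were 10 per 100 against 6.17. By peaks per gene, p53WT 2 was thus close to its background, and CASM34 2 lay above its own on 7 peaks. Histone genes are short and close together, so their window per gene is narrower and these rates rest on unlike windows.

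With the lists as deposited the groups overlapped. The mean number of called histone genes was 7.0 ± 9.90 (SD, n = 2) with p53WT and 7.5 ± 7.78 (SD, n = 2) with CASM34, a difference of -0.5 genes. This was far smaller than the spread between libraries of a group, and 2 libraries against 2 cannot give an exact two-sided permutation p below 0.333. Within the libraries numbered 1 the difference p53WT minus CASM34 was -2 genes, and within those numbered 2 it was 1 gene. Leaving out p53WT 1 turned the difference to 6.5, and leaving out p53WT 2 turned it to -7.5. It was -6 without CASM34 1 and 5 without CASM34 2. All lists were also cut to the 1604 best-ranked peaks. The counts were then 0 and 0 with p53WT and 2 and 5 with CASM34, a difference of -3.5 genes. These counts did not overlap, but they rested on the peak at H1-4 in CASM34 1 and those at H3C15 and H2AC21 in CASM34 2. Over all protein-coding genes, 0.374% and 2.10% were called with p53WT, and 0.439% and 2.32% with CASM34. The lowest −log10 q kept was 1.31 and 3.86 with p53WT, and 1.73 and 3.51 with CASM34.

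Histone genes are short, with a median length of 494 bp against 24130 bp for all protein-coding genes, so the window around their ends is narrower. Among the 1876 other protein-coding genes up to 3 kb long, a comparison chosen after seeing the data, 6.18% were called in p53WT 2, 5.01% in CASM34 2, 1.28% in p53WT 1 and 1.12% in CASM34 1. The share of histone genes in the libraries numbered 2 was above this level too. Of the histone genes, 6 are annotated as longer than 3 kb and were kept in that share. Neighbours that share a peak raise the histone share here as well.

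**Figure D1:**
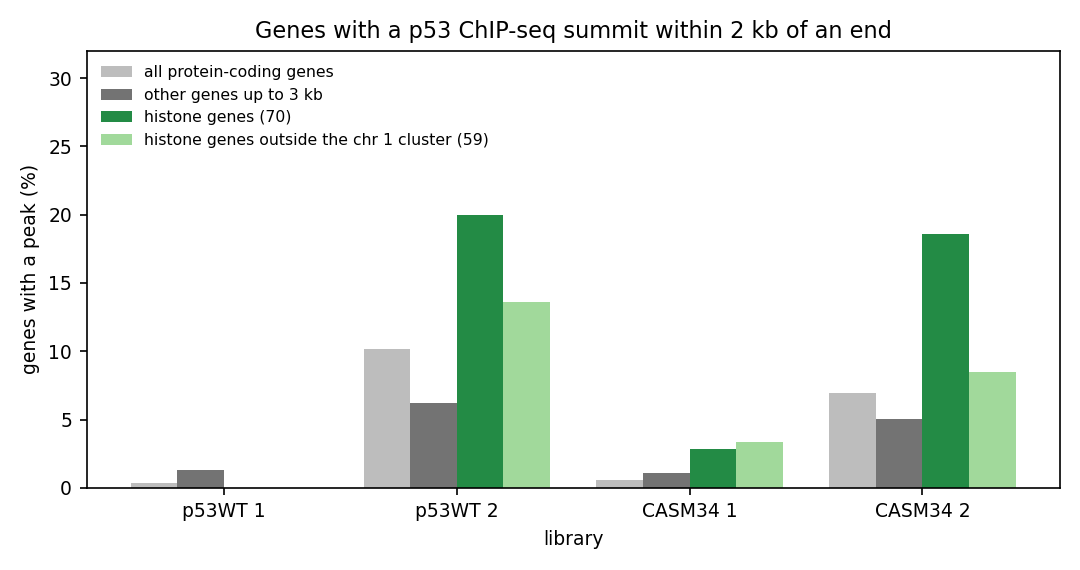
Percent of genes (vertical axis) with a summit within 2 kb of an end, by library (horizontal axis), for all protein-coding genes, other genes up to 3 kb, the 70 histone genes and the 59 outside the chromosome 1 cluster. Histone genes reach 20.0% in p53WT 2 and 18.6% in CASM34 2, and without the chromosome 1 cluster 13.6% and 8.47%.

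The clusters differed in how many of their genes were called. In the chromosome 1 cluster 6 of 11 genes (54.5%) were called in p53WT 2 and 8 of 11 (72.7%) in CASM34 2. In the chromosome 6 cluster it was 8 of 55 (14.5%) and 5 of 55 (9.09%). The 59 members outside the chromosome 1 cluster were called in 13.6% in p53WT 2 and 8.47% in CASM34 2, against 10.2% and 6.94% of all protein-coding genes. Against other genes up to 3 kb long, with 6.18% and 5.01%, these shares were farther above. The calls of the chromosome 1 cluster rested on 3 peaks in p53WT 2 and 4 in CASM34 2. The 4 members outside both clusters were called in no library, and their nearest summit was 99.3 kb away or farther.

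In the libraries numbered 1 the clusters were nearly empty. The nearest summit of p53WT 1 lay 2.33 Mb from the chromosome 1 cluster and 8.44 Mb from the chromosome 6 cluster. CASM34 1 also had its nearest summit 2.33 Mb from the chromosome 1 cluster, and held 1 peak in the chromosome 6 cluster, at H1-4. Over all protein-coding genes, too, only 0.374% were called in p53WT 1 and 0.559% in CASM34 1. The lists of these libraries were shorter, with 1604 and 1712 peaks on the chromosomes used. p53WT 2 had 4961 and CASM34 2 had 3211. Of these peaks, 77 in p53WT 1 and 106 in CASM34 1 lay within 2 kb of a protein-coding gene end. It was 1904 in p53WT 2 and 1236 in CASM34 2. The median −log10 q of the list was 7.61 in p53WT 1 and 7.19 in CASM34 1. It was 2.82 in p53WT 2 and 3.48 in CASM34 2. Read depth is unknown, so the missing peaks do not tell whether p53 was there.

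The chromosome 6 cluster falls into blocks separated by more than 200 kb, a split made after seeing the data. The first block, with the testis histone genes H2AC1 and H2BC1, was called in no library, with the nearest summit 429 kb away or farther. Of the 32 genes from H1-1 to H4C8, 2 were called in p53WT 2, CASM34 1 and CASM34 2, all through the peak at H1-4. The other 30 genes of that block had no summit nearer than 26.8 kb in any library. Of the 5 genes from H2BC11 to H2AC12, 4 were called in p53WT 2 through 2 peaks and 0 in CASM34 2, whose nearest summit was 176 kb away. Of the 16 genes from H2BC13 to H2BC17, 2 were called in p53WT 2 and 3 in CASM34 2. Peaks were thus few and far apart, with long runs of histone genes between them. For comparison, 10.2% of all protein-coding genes were called in p53WT 2, 6.94% in CASM34 2 and 0.559% in CASM34 1. With 32 genes or fewer per block, differences between blocks or libraries rest on few peaks.

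**Figure D2:**
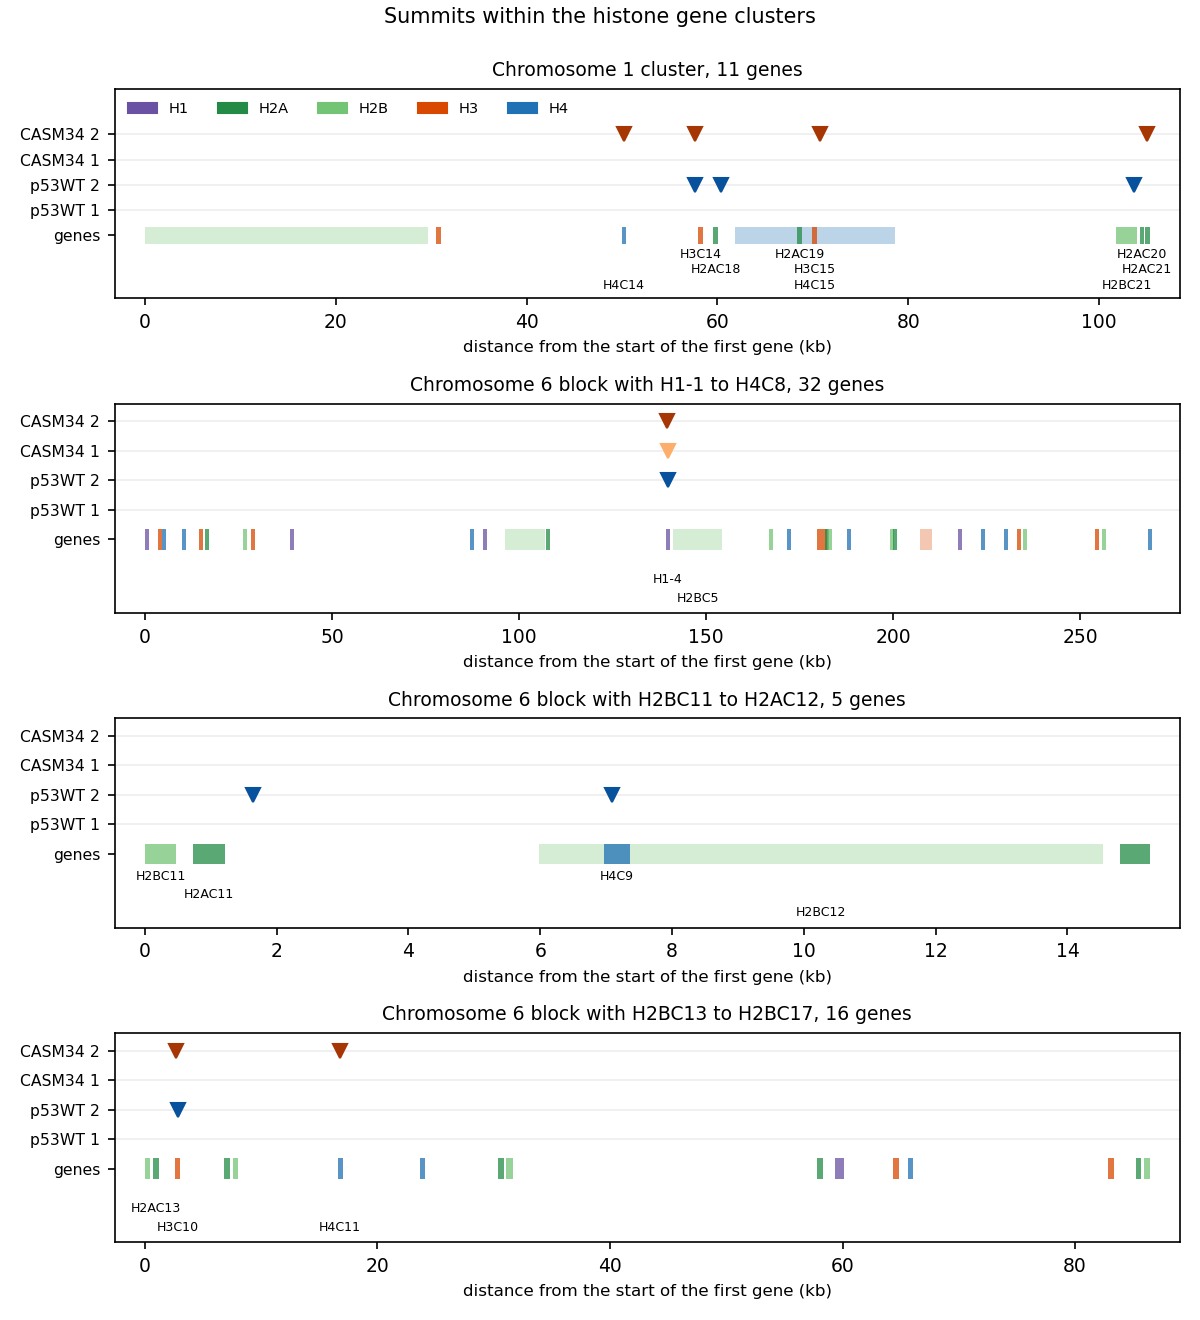
Summits (triangles, 1 row per library) along the chromosome 1 cluster and 3 blocks of the chromosome 6 cluster, with position in kb from the start of the first gene on the horizontal axis. Gene boxes are coloured by histone class, pale where the annotated gene is over 3 kb long, and called genes are named. The peak at H1-4 stands in 3 libraries, and p53WT 1 has no summit in any panel.

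H1-4, which encodes linker histone H1.4, had the most recurrent peak. Its gene spans 26156329 to 26157115 on chromosome 6. The summit was at 26156945 in p53WT 2, at 26156816 in CASM34 1 and at 26156638 in CASM34 2. These lie 616, 487 and 309 bp past the start site, all inside the gene. The deposited fold, the ratio of signal over background given by the authors' peak caller, was 4.80, 4.21 and 4.08, and the deposited −log10 q was 2.87, 2.05 and 2.00. The 3 peaks shared 79 bp (26156754 to 26156832), although their summits were spread over 307 bp. Ranked by −log10 q within its own list, with higher percentiles for stronger peaks, the peak stood at percentile 51.5 in p53WT 2, 8.67 in CASM34 1 and 17.7 in CASM34 2. The start of H2BC5, an H2B gene downstream, lay 1176, 1305 and 1483 bp from these summits, so H2BC5 was called by the same peaks. Over all protein-coding genes 70 were called in at least 3 libraries and 19 in all 4, and no histone gene was among the latter. The other linker genes, H1-1, H1-2, H1-3, H1-5 and the testis gene H1-6, were called in no library.

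H3C10, an H3 gene at 27810051 to 27810536 on chromosome 6, had a summit in both libraries numbered 2. It lay at 27810352 in p53WT 2 (301 bp past the start, fold 4.05, −log10 q 2.02) and at 27810196 in CASM34 2 (145 bp past the start, fold 3.63, −log10 q 1.54). The peaks overlapped by 75 bp. They stood at percentiles 26.9 and 5.62 of their lists, in the lower part of both. H2AC13, an H2A gene beside H3C10, was called by the same peaks from 1685 and 1529 bp. H2BC13, the H2B gene next to H2AC13, was just outside the limit, with its nearest summit at 2423 bp in p53WT 2 and 2267 bp in CASM34 2. Of the called genes, those whose nearest summit was farthest off were H2AC13 in p53WT 2 (1685 bp) and H2AC18 in CASM34 2 (1848 bp).

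H3C14, at 149840687 to 149841208 on chromosome 1, also had a peak in both libraries numbered 2, and here the summits nearly coincided. They lay at 149840382 in p53WT 2 (fold 4.34, −log10 q 3.15) and 149840370 in CASM34 2 (fold 4.30, −log10 q 2.64), 12 bp apart. Both sat 305 and 317 bp beyond the 3′ end of the gene, that is 826 and 838 bp past its start. At the copy H3C15 (149852608 to 149853125), CASM34 2 had a summit at 149853425, 300 bp beyond the 3′ end and 817 bp past the start. This was the strongest peak at any histone gene, with a fold of 5.83 and a −log10 q of 7.09, at percentile 74.9 of its list. It also lies within the long annotated interval of H4C15. The summits of CASM34 2 at H3C14 and H3C15 thus stood at like distances from the start of their gene. p53WT 2 called the copy at H3C14 and not that at H3C15, but which copy the reads came from may be uncertain. H2AC18 and H2AC19, the H2A copies, were called by these same peaks, from 1836 and 1848 bp (H2AC18) and from 1831 bp (H2AC19).

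The H2B and H2A genes H2BC21, H2AC20 and H2AC21 at the end of the chromosome 1 cluster were called in both libraries numbered 2, but by different peaks. In p53WT 2 the summit was at 149886374, 308 bp past the start of H2BC21 and inside that gene (fold 4.22, −log10 q 1.93). In CASM34 2 it was at 149887735, 230 bp past the start of H2AC21 and inside that gene (fold 5.60, −log10 q 4.44, percentile 61.6). The summits were 1361 bp apart and the peaks did not overlap. A gene called in both libraries is therefore not always a shared peak.

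The remaining peaks stood in 1 library each. In p53WT 2 a summit at 149843097 lay 347 bp upstream of H2AC18, inside the histone pseudogene H2BC19P (−log10 q 1.40). It touched H3C14 and H4C15 as well, the latter only through the far end of its long annotated interval, 18062 bp past its start. Another lay at 27133958, 423 bp beyond the 3′ end of H2AC11 (−log10 q 2.63), and called H2BC11 too. H4C9 is an H4 gene inside the long annotated interval of H2BC12. The summit at 27139407 was 125 bp past the start of H4C9, with a −log10 q of 1.31, the lowest value in the list. It also called H2BC12, 7451 bp past the start of that gene. In CASM34 2 the H4 genes H4C14 and H4C11 had summits 221 and 186 bp past their starts, with a −log10 q of 1.81 and 1.61. H4C14 and H4C11 were the 2 genes whose peak touched no other histone gene. A peak in 1 library alone does not show a difference between the p53 forms.

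Summits lay mostly past the start sites and not in the promoters. Of the 15 peaks, 10 had the summit inside the histone gene with the nearest end, 4 lay beyond the 3′ end of that gene and 1 lay upstream. Of the 4, that at H3C15 was also inside the long annotated interval of H4C15. No summit fell within the 250 bases before the start of its nearest histone gene. A gene of the median length takes 11% of the window that decides a call. Among called histone genes the gene itself held a summit in 5 of 14 in p53WT 2 (35.7%) and 5 of 13 in CASM34 2 (38.5%), since neighbours were called by the same peaks. Among called genes up to 3 kb other than histone genes and with a known strand, it was 54 of 82 (65.9%) and 42 of 67 (62.7%). Those genes are longer, with a median of 1634 bp, so the shares are not on the same footing.

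**Figure D3:**
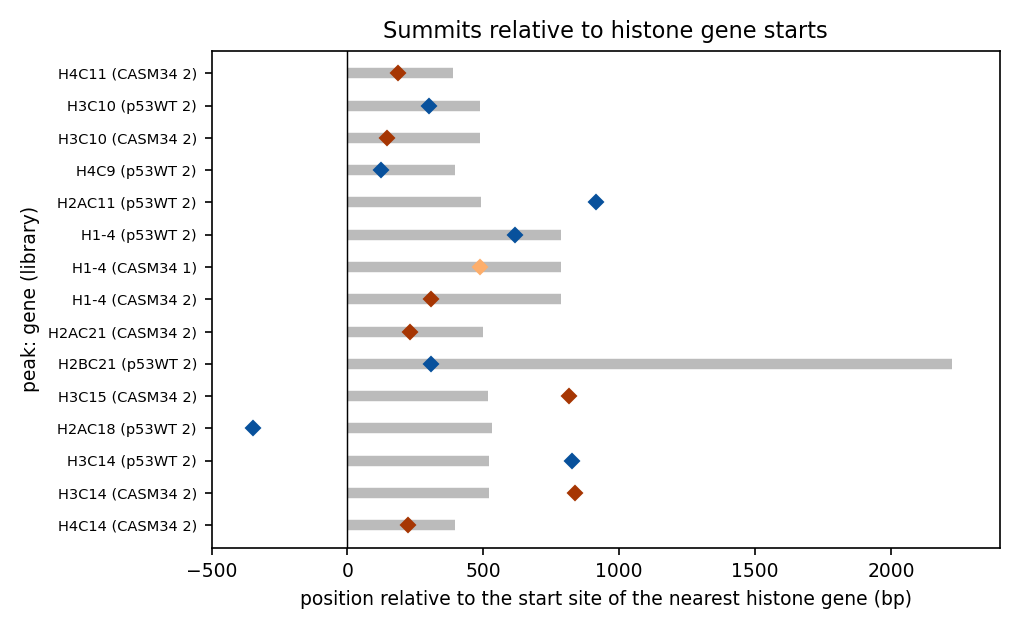
Position of each of the 15 summits relative to the start site of the nearest histone gene (horizontal axis, bp), with 1 line per peak named by gene and library. Grey bars span the annotated gene. In 10 lines the summit is inside the bar, and 1 summit, at H2AC18, is upstream of the start.

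By histone class, the genes called in any library were 1 of 6 H1, 6 of 17 H2A, 4 of 19 H2B, 3 of 13 H3 and 4 of 15 H4 genes, 18 in all. The counts in p53WT 2 were 1, 5, 4, 2 and 2 in that order, and in CASM34 2 they were 1, 5, 2, 3 and 2. Every class had a called gene in both libraries, and no class was without uncalled members. The other 52 histone genes had no peak in any library. Neighbours of unlike classes shared peaks, so the classes were not called independently. Of all protein-coding genes, 10.2% were called in p53WT 2 and 6.94% in CASM34 2. The share called in any library was not counted over all protein-coding genes. The 18 genes called in any library thus have no background here and cannot be set against these single-library shares.

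The libraries numbered 2 shared 9 called histone genes, which is 64.3% of the 14 in p53WT 2 and 69.2% of the 13 in CASM34 2. For all protein-coding genes the 613 shared genes were 29.9% and 44.1%. Of the 9 genes, 3 (H2BC21, H2AC20 and H2AC21) had peaks that did not overlap, and the other 6 rested on 3 shared regions. By peaks, 3 of 7 in either library (42.9%) overlapped a peak of the other by at least 1 bp. Among all peaks within 2 kb of a protein-coding gene end, it was 420 of 1904 in p53WT 2 (22.1%) and 423 of 1236 in CASM34 2 (34.2%). The 15 peaks formed 11 separate regions, of which 8 were in 1 library, 2 in 2 libraries and 1, at H1-4, in 3.

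Peaks at histone genes had lower medians than the gene-end peaks of the same list. Their median −log10 q was 2.02 in p53WT 2 and 2.00 in CASM34 2, against 2.72 and 2.88 over all peaks within 2 kb of a protein-coding gene end. The median fold was 4.22 against 4.53 in p53WT 2, and 4.08 against 4.63 in CASM34 2. In p53WT 2 they ran from percentile 0.23 to 55.2 of the list, and in CASM34 2 from 5.62 to 74.9. No test was made of these differences.

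**Figure D4:**
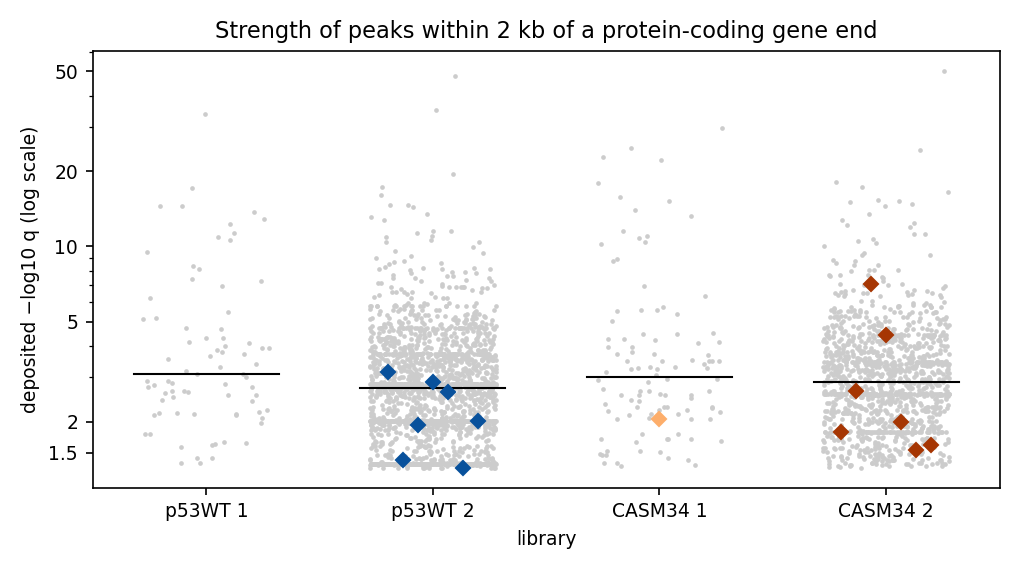
Deposited −log10 q (vertical axis, log scale) of every peak within 2 kb of a protein-coding gene end (grey points) with its median (black line), by library; points are spread sideways for visibility. Diamonds are the peaks at histone genes, 7 in p53WT 2, 1 in CASM34 1 and 7 in CASM34 2, with medians of 2.02, 2.05 and 2.00.

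The histone clusters also hold other genes. Between the first and last member of the chromosome 6 cluster lie 20 other protein-coding genes. Only HMGN4, a nucleosome-binding protein gene, was called among them, in p53WT 2. Of all protein-coding genes, 10.2% were called in p53WT 2 and 6.94% in CASM34 2. The same span holds 98 tRNA genes, of which 4 were within 2 kb of a summit in p53WT 2 and 1 in CASM34 2. Of these, TRR-ACG1-2 and TRV-CAC1-6 were near the summit that called HMGN4. The share over all tRNA genes was not counted. Of the 9 peaks of p53WT 2 in this span 4 were at histone genes, and of the 5 of CASM34 2 it was 3. The chromosome 1 cluster holds 2 other protein-coding genes, neither of them called, and all 7 of its peaks were at histone genes.

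The promoters of the histone genes often held the boxes known for this family. Start sites and upstream sequences were at hand for 64 of the 70 genes, and all 18 called genes were among them. In the 250 bases before the start, TATAAA on either strand stood in 43 of 64 histone genes (67.2%) against 11.9% of 15842 protein-coding genes. CCAAT stood in 54 of 64 (84.4%) against 40.2%. All H1, H2A, H2B and H3 genes with a sequence held CCAAT, but only 3 of 13 H4 genes did. ATTTGCAT, the octamer bound by POU factors such as POU2F1, stood in 14 of 18 H2B and 11 of 16 H2A genes, and in 2.15% of all protein-coding genes. Each motif was searched on both strands and regardless of any overlap with another. TATAAA stood in 15 of the 18 called genes and 28 of the 46 uncalled genes with a sequence, and CCAAT in 15 and 39. The p53 half-site, the 10-base consensus of which a response element holds 2 copies, stood in 4 of 64 histone genes (6.25%) against 6.91% of all protein-coding genes. It stood in 2 of the 18 called genes and 2 of the 46 others with a sequence. The sequence under the summits themselves, mostly past the start sites, was not analysed here.

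Genes that act on histone expression were also called, and these lists were drawn up with earlier results of the data known. Of 25 genes of the histone locus body, its cell cycle control and histone mRNA 3′ end processing, 7 (28%) were called in p53WT 2 and 5 (20.0%) in CASM34 2, against 10.2% and 6.94% of all protein-coding genes. In CASM34 1 it was 1 gene (4%), against 0.559% of all protein-coding genes, and in p53WT 1 it was 0, against 0.374%. Called in both libraries numbered 2 were CCNE2, which encodes cyclin E2, CPSF3, the endonuclease that cuts histone pre-mRNA, and SRRT, a cap-complex partner. At CCNE2 the summits were 667 and 675 bp from a gene end (−log10 q 2.97 in p53WT 2 and 2.55 in CASM34 2). At CPSF3 they were 1744 and 1859 bp away (2.71 and 3.78). At SRRT the summits stood near opposite ends of the gene, at 100875440 in p53WT 2 and 100889345 in CASM34 2 on chromosome 7. UPF1, an RNA helicase needed for histone mRNA decay, was called in p53WT 2 (−log10 q 1.71) and in CASM34 1 (1.40). Others of the list were picked out once their values were known. SLBP, the stem-loop binding protein, and E2F1 were called in p53WT 2 alone, and CCNE1 and CDK2 in CASM34 2 alone. NPAT, the coactivator, was called in no library.

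Histone chaperones were called in 3 of 18 genes (16.7%) in either library numbered 2, and 1 of 18 (5.56%) in p53WT 1. Of all protein-coding genes 10.2% were called in p53WT 2, 6.94% in CASM34 2 and 0.374% in p53WT 1. ASF1A, a chaperone of H3 with H4, had a summit in p53WT 1 (−log10 q 4.11), p53WT 2 (3.35) and CASM34 2 (3.06), at 592, 405 and 683 bp from the same gene end. RBBP4, a histone-binding subunit of several chromatin complexes, was called in p53WT 2 (−log10 q 2.82) and CASM34 2 (6.67), at 155 and 106 bp. Of 22 histone genes outside the naming rule (replacement, linker and singly placed variants), 1 (4.55%) was called in p53WT 2, against 10.2% of all protein-coding genes, and 0 in the other libraries. That gene was H2AX (−log10 q 2.68), which encodes the variant phosphorylated at DNA breaks.

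The count of called histone genes depended on the limits used. With summits within 1 kb, 8 genes (11.4%) were called in p53WT 2 against 9.14% of all protein-coding genes, and 8 (11.4%) in CASM34 2 against 6.05%. When only peaks with a −log10 q from 3 upwards were used, 2 genes (2.86%) remained in p53WT 2 against 3.95%, and 5 (7.14%) in CASM34 2 against 3.42%. With all lists cut to the 1604 best-ranked peaks, p53WT 2 had 0 called histone genes against 2.10% of all protein-coding genes, as its list then ended at a −log10 q of 3.86. CASM34 2 had 5 (7.14%) against 2.32%, and CASM34 1 kept 2 (2.86%) against 0.439%. The 5 genes of CASM34 2, here and with a −log10 q from 3 upwards, rested on the peaks at H3C15 and H2AC21. The 2 of CASM34 1 shared the peak at H1-4. Whether the peaks at histone genes mark p53 on chromatin was not tested, as no control library was among the files analysed.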

How the data were processed

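Peak lists of 4 p53 ChIP-seq libraries were analysed. Per the labels' protocols, micrococcal nuclease and sonication fragmented the chromatin. Trim Galore, Bowtie2, bedtools and GRCh38 appear in the submitters' processing notes; which peak caller, control library and cutoff were used is not given in the sources used here. Each deposited list holds intervals, summits, a deposited fold (a ratio of signal over background), −log10 p, −log10 q and a deposited score, and no read counts.

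Positions are 1-based. Rows outside chromosomes 1 to 22, X and Y (278 to 465 per library) were left out; rows sharing an interval kept their summits and counted as 1 peak. Genes, start sites and promoters came from RefSeq (GRCh38.p14). Members and lists were chosen with earlier results of these data known, so no p-value is given over them. Named by rule were members called in at least 2 libraries or in a library numbered 1, and members beside the 2 kb limit. So were the 6 strongest peaks at members per library, and list genes called in at least 2 libraries or a library numbered 1. Other genes, among them H4C9 with H2BC12, and H2AX, were named outside this rule once their values were known. Calling was tested on simulated data. Python 3.11.15, numpy 2.4.6, pandas 2.3.3, scipy 1.17.1, biopython 1.88 and matplotlib 3.10.9 were used. Alternatives changed the distance, −log10 q, list length, use of summits and gene end.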

Additional observations from a re-analysis of the deposited data

How the results depend on the processing

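Counts of called histone genes in p53WT 2 moved from 14 to 8 within 1 kb and to 2 with −log10 q from 3 upwards. They were 0 from 5 upwards and 0 with lists of equal length. Over all protein-coding genes the share in p53WT 2 moved from 10.2% to 9.14%, 3.95%, 0.923% and 2.10% in that order. In CASM34 2 the counts moved from 13 to 8, 5, 2 and 5 under the same settings. The share over all protein-coding genes there moved from 6.94% to 6.05%, 3.42%, 0.844% and 2.32%. In CASM34 1 the counts moved from 2 to 1 within 1 kb and to 0 under both limits on −log10 q. The share over all protein-coding genes was then 0.414% within 1 kb, and 0.255% and 0.115% under those limits. Fewer peaks or a narrower window enter under these settings by construction. Within 5 kb, by overlap of the peak interval and by the start site alone, every count stayed within 1.5 times its value, as did the 0 of p53WT 1 under every setting. The difference p53WT minus CASM34 of -0.5 genes lay between -3.5 and -0.5 under the other settings of peaks and distance, and between -7.5 and 6.5 when 1 library was left out. Each of these values lay nearer to -0.5 than the spread (SD) of the unchanged counts between libraries of a group. With lists of equal length the counts were 0 and 0 with p53WT and 2 and 5 with CASM34, so the groups did not overlap. Over all protein-coding genes the shares were then 0.374% and 2.10% with p53WT, and 0.439% and 2.32% with CASM34. The called genes rested on the peak at H1-4 in CASM34 1 and on those at H3C15 and H2AC21 in CASM34 2. The lowest −log10 q kept ran from 1.31 in p53WT 1 to 3.86 in p53WT 2. The replicate block, the mean of the differences within numbers 1 and 2, gave -0.5 as well; no test comes with it. Among the 45 values, 5 main ones included, 11 moved. Unknown read depth limits every absence of a peak.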
